A study of Arabidopsis thaliana with 12 samples.

Results

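The comparison described here sets rosettes of an Arabidopsis line with a steroid-inducible LSD1 against rosettes of a line in which LSD1 is fused to green fluorescent protein. Both fusions are driven by the 35S promoter, a viral promoter active in most plant cells. It rests on 3 libraries of 35S:LSD1-GR, whose LSD1 is joined to the hormone-binding domain of the glucocorticoid receptor, from seedlings given 30 µM dexamethasone (DEX); they are called LSD1-GR+DEX below. They are set against the 3 libraries of 35S:LSD1-GFP, which received no treatment. The comparison uses 6 of the 12 libraries of the series.

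All plants were of the Wassilewskija (Ws-0) accession, 2 weeks old and grown on MS medium with 16 h of light per day. The other 6 libraries are 3 of untreated wild type and 3 of the lsd1-1 mutant, which carries a disrupted LSD1 gene. Per the labels, seedlings of the LSD1-GR line were raised on nylon mesh and moved to fresh medium with DEX, whereas the other lines had no treatment. No untreated LSD1-GR plants, no DEX-treated wild type and no line with GFP alone were analysed here. The fusion partner, the insertion site, the strength of expression, DEX and the transfer therefore cannot be told apart. The sources used here give neither the hours on DEX nor the hour of harvest, nor the number of independent transgenic lines, nor whether the native LSD1 gene is intact in them. The labels speak of biological repeats without saying whether these were separate sowings, so the p-values measure the spread between these libraries.

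LSD1 is a small zinc finger protein known in Arabidopsis as a brake on spreading cell death. In plants that lack it, lesions triggered by excess light, pathogens or reactive oxygen run on past the damaged cells. LSD1 is also known to bind other proteins, such as the metacaspase MC1 and the bZIP10 transcription factor, and to act upon antioxidant enzymes. A fusion to the glucocorticoid receptor domain is normally held in the cytosol by chaperones and can enter the nucleus once a steroid such as DEX is bound, which is the usual reason for building one.

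The 6 libraries held 10860683, 10580521 and 10299746 counts in LSD1-GR+DEX, against 10579567, 11503432 and 10753620 counts in LSD1-GFP. Levels below are CPM, counts set against the total of the library and scaled by TMM library factors, which do not correct for gene length. Profiles of log2 CPM correlated at 0.992 across genes between LSD1-GR+DEX replicates 1 and 3, whereas replicate 2 correlated with them at only 0.979 and 0.976. The LSD1-GFP libraries correlated with each other at 0.984 to 0.988, and libraries of different lines at 0.943 to 0.955. LSD1-GR+DEX replicate 2 thus stood apart from the other replicates of its line. Replicate 2 was also the highest of every group in the summed heat shock list given below, so part of that departure was shared across groups. List counts that moved by over 1.5 times without any 1 of the 6 libraries are given beside the count from all of them. The tissue is labelled rosette. The light-harvesting and Rubisco genes were among the most abundant transcripts. Seed storage genes summed to at most 0.201 CPM in any of the 6 libraries compared. Markers of roots were nevertheless detected in every library, and their levels are given with the iron genes.

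LSD1 itself (AT4G20380, chromosome 4, 11004503 to 11006968, plus strand, TAIR10.1 assembly) was overexpressed to very different degrees in these lines. Its transcript stood at 169, 218 and 147 CPM in LSD1-GR+DEX, against 2190.1, 2703 and 2159 CPM in LSD1-GFP. The replicates of the lines lay far apart, and both lines exceeded the 23.57 ± 1.87 CPM of wild type (mean ± SD, n = 3). LSD1 was 13.2-fold lower in LSD1-GR+DEX (log2 difference -3.72, standard error 0.16, adjusted p = 6.7e-09 by edgeR's quasi-likelihood test). The counts do not separate the native transcript from the transgene's. Every difference below is thus between a line with a moderate excess of LSD1 transcript and DEX, and a line with a very large excess and none.

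Of 19487 genes tested, 6386 (32.8%) passed an adjusted p of 0.05, with 3223 higher (16.5%) and 3163 lower (16.2%) in LSD1-GR+DEX. A change of at least 2-fold was reached by 1491 of them (7.65%), with 1055 higher and 436 lower. At least 4-fold changes were seen in 237 genes that rose and 89 that fell. The replicates of both lines did not overlap in 8846 genes (45.4%), so absence of overlap is by itself common here. The median log2 difference over all genes tested was 0.02. Against a test for changes beyond 1.5-fold, 1140 genes passed, of which 711 were higher and 429 lower. Of the wild-type comparisons in the same fit, LSD1-GR+DEX differed from wild type in 7015 genes (36%) and LSD1-GFP in 5662 (29.1%); these share the 3 wild-type libraries, and their values for single genes are given below side by side.

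Lists of 750 loci in 43 groups were used to describe the difference. Lists in which most tested members rose included those of iron deficiency, detoxification, sulfate assimilation and indole glucosinolate or camalexin synthesis. Lists in which most members fell included those of photosynthesis, chlorophyll synthesis, iron storage, cold, drought and low oxygen. The plot of called shares by list shows each beside the share over all genes. For some lists the called share was near the 32.8% over all genes tested. They were salicylic acid and cytokinin (36.4% each), root markers, brassinosteroid and gibberellin (33.3% each), and phosphate starvation (31.6%). Counted in either direction, the calls do not set these lists apart. Split by direction, members higher and lower were 10 and 2 of 33 for salicylic acid and 4 and 0 of 11 for cytokinin. They were 4 and 0 of 12 for root markers, 6 and 0 of 19 for phosphate starvation, and 3 and 2 of 15 for brassinosteroid and gibberellin. Over all genes tested, 16.5% were higher and 16.2% lower.

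**Figure D1:**
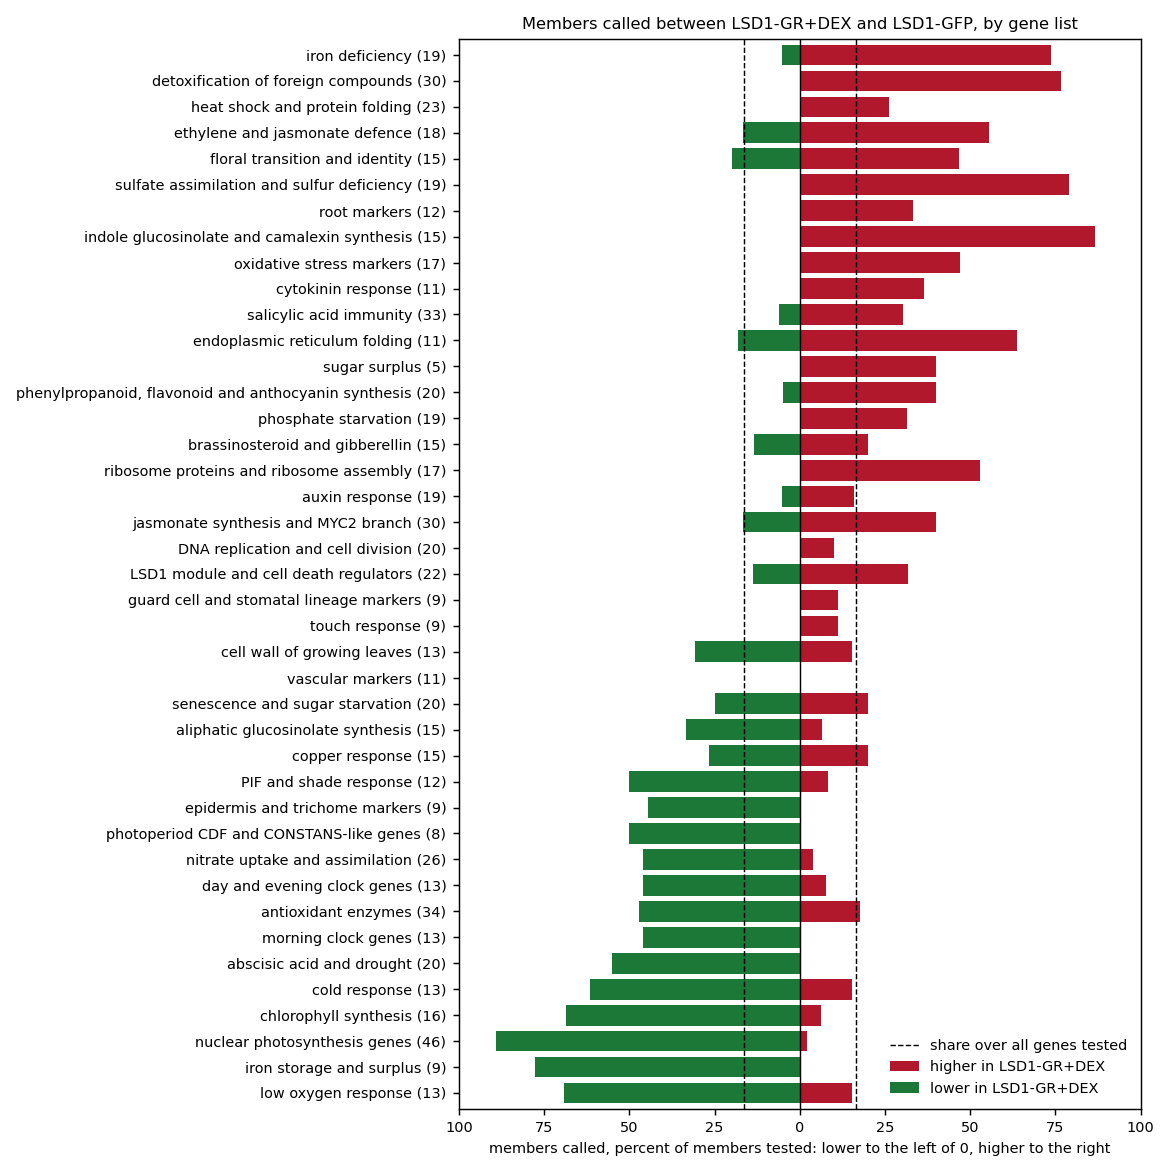
Share of the tested members of each gene list that were called at an adjusted p below 0.05, in percent, with members higher in LSD1-GR+DEX drawn to the right and members lower drawn to the left. The dashed lines mark the shares over all genes tested, 16.5% higher and 16.2% lower; the bars of iron deficiency, detoxification and sulfate assimilation run far past the line on the right, and those of photosynthesis and chlorophyll synthesis far past it on the left.

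Genes of the iron deficiency response were higher in LSD1-GR+DEX and genes of iron storage were lower. Arabidopsis leaves that run short of iron raise the clade Ib bHLH factors (BHLH38, BHLH39, BHLH100 and BHLH101), which with FRU (FIT) drive iron uptake, and they lower the ferritins, which store iron in plastids. Of 19 tested members of the deficiency list, 14 rose and 1 fell, with a median log2 difference of 1.5. Of 9 tested members of the storage list none rose and 7 fell, with a median of -0.95. Without any 1 of the 6 libraries, 14 or 15 members of the deficiency list were called higher.

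The promoters of BHLH38 and BTS are printed to show what lies before a regulator of the response that rose. Each line is the 250 bases before the annotated gene start, 5′ to 3′ on the gene's strand, read from the TAIR10.1 assembly of RefSeq, which is of the Col-0 accession and not of Ws-0. Capitals mark matches, on either strand, to the G-box CACGTG, the abscisic acid response element ACGTGTC or the cold element core CCGAC.
BHLH38 (chr3:21085246-21085495, minus strand): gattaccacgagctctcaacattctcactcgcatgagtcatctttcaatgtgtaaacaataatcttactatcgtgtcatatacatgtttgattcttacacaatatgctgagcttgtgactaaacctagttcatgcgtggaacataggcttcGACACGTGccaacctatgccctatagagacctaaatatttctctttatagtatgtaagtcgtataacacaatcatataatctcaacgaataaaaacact
BTS (chr3:6273716-6273965, plus strand): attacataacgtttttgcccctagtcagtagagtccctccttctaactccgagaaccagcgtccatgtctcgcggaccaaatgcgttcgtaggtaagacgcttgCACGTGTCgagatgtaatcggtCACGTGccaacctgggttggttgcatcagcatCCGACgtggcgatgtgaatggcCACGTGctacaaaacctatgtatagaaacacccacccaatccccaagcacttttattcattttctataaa

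Both windows held a G-box overlapped by an ACGTGTC. The BHLH38 window had its G-box starting 97 bases before the gene, and the BTS window held 3 G-boxes, 146, 124 and 70 bases before it, plus a CCGAC at 92. Over all 26709 such windows in the annotation, 6.58% held CACGTG, 3.74% held ACGTGTC and 11.9% held CCGAC. Each of CACGTG and ACGTGTC was in 21.1% of the iron deficiency windows. Such matches describe the letters of the window and are no evidence of binding.

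BHLH101 stood at 30.2, 15.2 and 31.4 CPM in LSD1-GR+DEX, against 1.41, 1.99 and 1.32 CPM in LSD1-GFP. It was 16.1-fold higher (log2 difference 4.01, SE 0.32, adjusted p = 1.38e-06), and its lowest LSD1-GR+DEX library, replicate 2, still lay several times above every LSD1-GFP library. The related BHLH100, BHLH39 and BHLH38 rose by 3.504, 2.96 and 2.72 on the log2 scale. BHLH38 and BHLH39 are close copies between which reads may be split, so the family was also summed. The 4 genes together gave 536.6, 223 and 549.1 CPM in LSD1-GR+DEX, against 37.83, 75.11 and 41.64 CPM in LSD1-GFP, an 8.46-fold ratio of means. Wild type had 72.8 ± 12.7 CPM, and the lsd1-1 libraries had 53.67, 45.46 and 46.55 CPM.

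BTS, a ubiquitin ligase that restrains the deficiency response, was at 939, 671 and 907 CPM in LSD1-GR+DEX, against 235, 328 and 216 CPM in LSD1-GFP. The lines did not overlap, and BTS was 3.23-fold higher (log2 difference 1.69, SE 0.16, adjusted p = 5.28e-06). ZIF1, which loads nicotianamine, a chelator of iron and zinc, into vacuoles, was at 228, 187 and 232 CPM in LSD1-GR+DEX, against 57.2, 77.9 and 64.2 CPM in LSD1-GFP (log2 difference 1.70, SE 0.12, adjusted p = 3.14e-07). NAS4, which makes nicotianamine, stood at 70.8, 55.0 and 72.5 CPM in LSD1-GR+DEX, against 19.8, 25.5 and 24.9 CPM in LSD1-GFP (log2 difference 1.496, SE 0.14, adjusted p = 3.92e-06). OPT3, which moves iron into the phloem, rose by 1.29 (SE 0.17), and FRO3, a ferric reductase of mitochondria, by 1.56 (SE 0.23) on the log2 scale. The bHLH factor PYE, which shapes iron distribution, rose less, by 0.69 (SE 0.14).

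Genes of iron uptake at the root surface changed less or did not pass. FRO2, the root ferric reductase, rose by 1.00 (SE 0.25), while IRT1, the iron transporter of the root epidermis, had a log2 difference of 0.63 (SE 0.29) that did not pass (adjusted p = 0.12), at 136, 103 and 137 CPM in LSD1-GR+DEX, against 74.9, 83.2 and 85.1 CPM in LSD1-GFP. FRU, the partner of the clade Ib factors, had 0.50 (SE 0.22) (adjusted p = 0.0912). The 1 member that fell was NAS2, another nicotianamine synthase, at 0.716, 1.25 and 0.954 CPM in LSD1-GR+DEX, against 4.63, 1.89 and 3.76 CPM in LSD1-GFP (log2 difference -1.80).

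FER4, a ferritin, stood at 11.3, 15.67 and 13.9 CPM in LSD1-GR+DEX, against 114, 79.5 and 124 CPM in LSD1-GFP, with wild type at 32.5 ± 2.57 CPM. It was 7.76-fold lower (log2 difference -2.96, SE 0.16, adjusted p = 7.39e-08), and wild type lay between the lines. FER3 fell by 1.04 on the log2 scale, and FER1 by 0.91, though the replicates of the lines overlapped for FER1. The nicotianamine synthase NAS3, the metal-nicotianamine transporter YSL1 and the vacuolar iron transporter-like genes VTL5 and VTL1 fell by 1.43, 0.99, 0.95 and 0.84. The 4 ferritin genes together gave 84.84, 125.6 and 96.6 CPM in LSD1-GR+DEX, against 300.9, 204.7 and 326 CPM in LSD1-GFP, with wild type at 136 ± 6.84 CPM.

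Relative to wild type, the median of the iron deficiency list was 1.65 on the log2 scale in LSD1-GR+DEX and 0.09 in LSD1-GFP. The median of the storage list was 0.02 in LSD1-GR+DEX and 1.06 in LSD1-GFP. These medians share the wild-type libraries. By these medians the deficiency genes stood away from wild type mainly in LSD1-GR+DEX, and the storage genes mainly in LSD1-GFP.

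**Figure D2:**
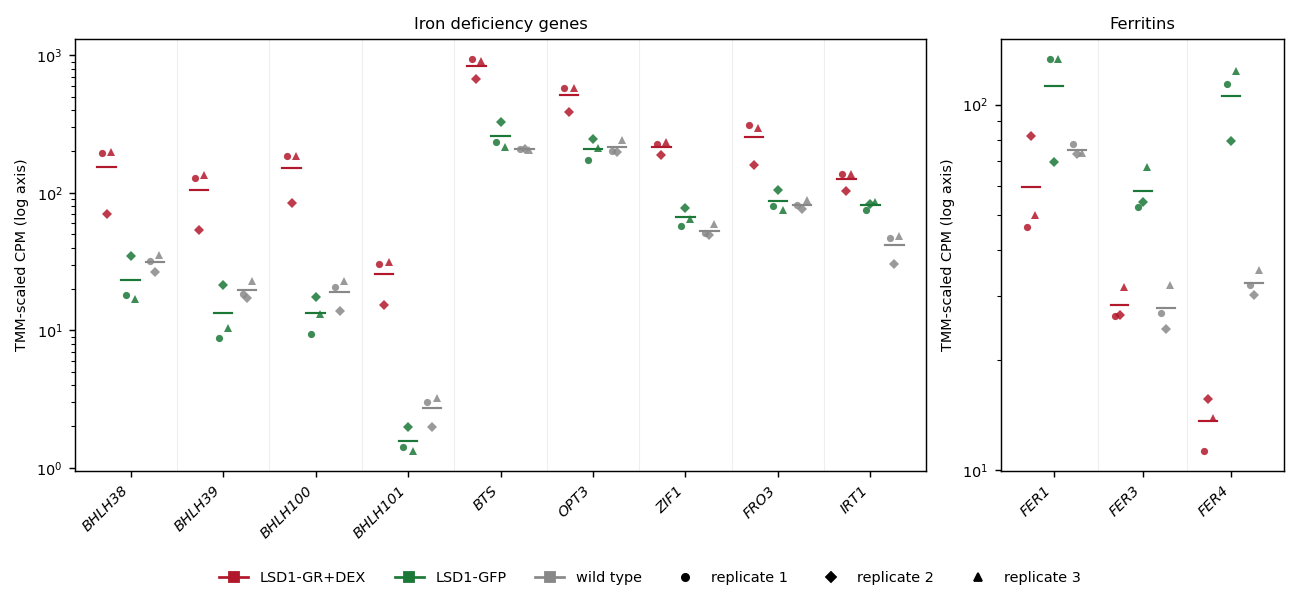
Level of 9 iron deficiency genes and 3 ferritin genes in each library of LSD1-GR+DEX, LSD1-GFP and wild type, in TMM-scaled CPM on a log axis, with a point per library and a line at the mean of 3. BHLH101 sits between 15.2 and 31.4 CPM in LSD1-GR+DEX, above all LSD1-GFP libraries, and FER4 sits between 11.28 and 15.67 CPM, below all of them.

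Because iron uptake genes are root genes, root markers were set beside them. The 6 root hair markers together gave 85.64, 26.24 and 102.2 CPM in LSD1-GR+DEX, against 26.06, 37.46 and 37.58 CPM in LSD1-GFP and 36.74, 32.04 and 57.26 CPM in wild type. Replicates 1 and 3 of LSD1-GR+DEX were high, whereas replicate 2 lay within the LSD1-GFP range. In that replicate the clade Ib bHLH genes gave 223 CPM, against 536.6 and 549.1 CPM in replicates 1 and 3. That was the lowest of the line and above every LSD1-GFP library. Whether root material contributed to the iron differences was not tested. Of 12 tested root markers 4 rose and none fell (33.3% called, against 32.8% over all genes tested). The number that rose was 1 without LSD1-GR+DEX replicate 1 or 3 or LSD1-GFP replicate 1 or 3. It was 10 without LSD1-GR+DEX replicate 2 and 2 without LSD1-GFP replicate 2. PYK10, a β-glucosidase of roots and hypocotyls, was at 2389, 2722 and 2441 CPM in LSD1-GR+DEX, against 1259, 1875 and 1225 CPM in LSD1-GFP (log2 difference 0.79, SE 0.15, adjusted p = 0.00148), so it was high in replicate 2 as well. The root hair genes COBL9, EXPA7 and EXPA18 were called, but their replicates overlapped between the lines and each call was lost without any of at least 4 single libraries. In such bulk tissue, more cells of a type and more RNA per cell cannot be told apart.

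**Figure D3:**
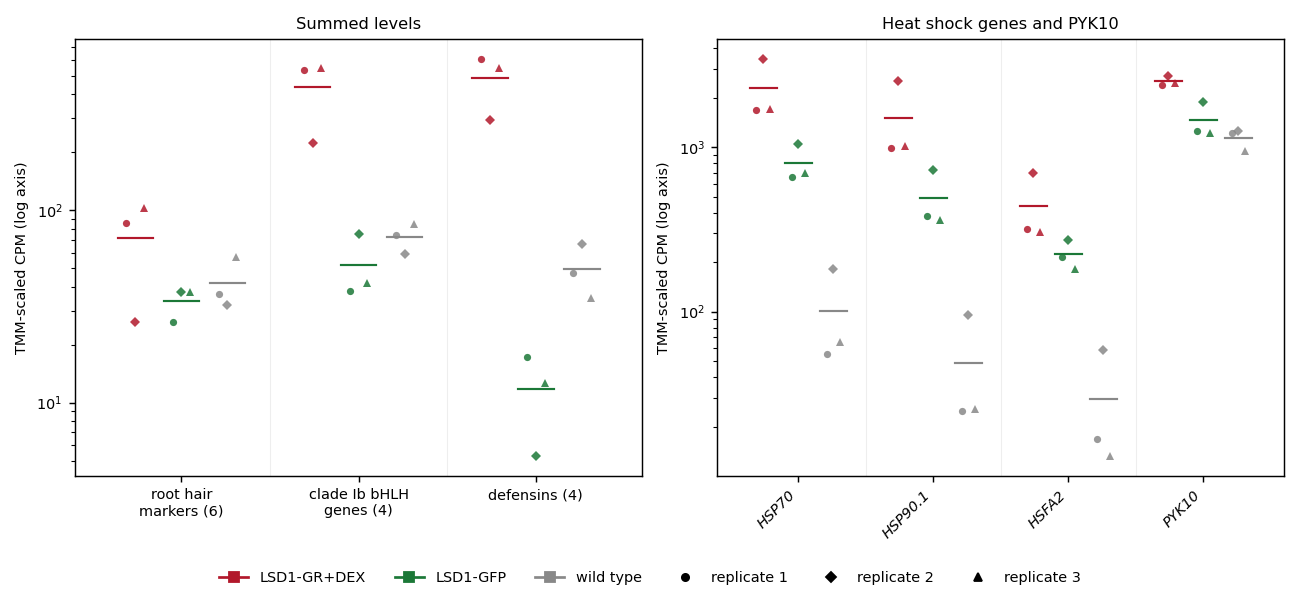
Level in each library of the summed root hair markers, the summed clade Ib bHLH genes, the summed defensins and of HSP70, HSP90.1, HSFA2 and PYK10, in TMM-scaled CPM on a log axis, with LSD1-GR+DEX left of LSD1-GFP and the marker shape giving the replicate. LSD1-GR+DEX replicate 2 has the lowest root hair sum of its line, 26.24 CPM, and the lowest bHLH and defensin sums, 223 and 295.1 CPM. The bHLH and defensin sums of that replicate lie above all LSD1-GFP libraries.

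Defence genes of the combined ethylene and jasmonate branch showed some of the strongest rises. Plants induce this branch against fungi that kill host cells, through the factors ERF1 and ORA59 and their target PDF1.2, an antifungal defensin. Of 18 tested members 10 rose and 3 fell, with a median log2 difference of 1.27. The medians against the shared wild type were 1.05 for LSD1-GR+DEX and -0.19 for LSD1-GFP.

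PDF1.2 stood at 325, 153 and 298 CPM in LSD1-GR+DEX, against 11.4, 4.16 and 8.63 CPM in LSD1-GFP and 32.4 ± 8.83 CPM in wild type. It was 32.3-fold higher (log2 difference 5.01, SE 0.58, adjusted p = 1.9e-04); the lowest LSD1-GR+DEX library, replicate 2, lay above every LSD1-GFP library, and wild type lay between the lines. Its near copies PDF1.2C and PDF1.2B rose by 6.07 and 4.67. PDF1.3 had 886 counts over the LSD1-GR+DEX libraries, against 2 counts in LSD1-GFP, a 419-fold ratio (95% counting interval 116 to 3470). Reads may be split among these copies, so the 4 were summed: 607.4, 295.1 and 548.4 CPM in LSD1-GR+DEX, against 17.31, 5.297 and 12.7 CPM in LSD1-GFP, a 41.1-fold ratio of means. The rise thus holds for the family as a whole.

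The factors above the defensins rose less. ERF1 rose by 1.66 (SE 0.28) and ORA59 by 1.15 (SE 0.34) on the log2 scale. ACS2, which makes the ethylene precursor, rose by 2.44 (SE 0.35), and stood at 6.17, 10.7 and 4.77 CPM in LSD1-GR+DEX, against 1.71, 1.14 and 1.12 CPM in LSD1-GFP. The hevein-like PR4 rose by 1.39 (SE 0.15) and the basic chitinase HCHIB by 0.92 (SE 0.13). The members that fell were ERF4, a repressor of this branch, by 0.88 on the log2 scale, and the ethylene receptors ETR2 and ERS1, by 0.48 and 0.27.

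The wound branch of jasmonate signalling, which runs through MYC2, was mixed. Of 30 tested members 12 rose and 5 fell, the number that fell being 2 without LSD1-GR+DEX replicate 1 or 3 or LSD1-GFP replicate 3 and 3 without LSD1-GFP replicate 2. AOC2, an allene oxide cyclase of jasmonate synthesis, was at 81.2, 91.2 and 79.1 CPM in LSD1-GR+DEX, against 21.7, 9.37 and 14.0 CPM in LSD1-GFP (log2 difference 2.48, SE 0.32, adjusted p = 2.12e-04). The lines did not overlap for AOC2. JAZ8, a repressor of jasmonate signalling, rose by 3.41 from a very low level, and VSP1, a vegetative storage protein induced by wounding, by 1.60. TAT3, a tyrosine aminotransferase induced by jasmonate, fell by 2.13, BSMT1, a methyltransferase of salicylic and benzoic acid, by 2.03, and CYP94B3, which breaks down the active hormone, by 1.23. MYC2 itself had 0.22 (SE 0.11) (adjusted p = 0.141).

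Camalexin and indole glucosinolate genes rose together. Both families of indole defence compounds are made from tryptophan and share their early enzymes. Of 15 tested members 13 rose and none fell, with a median log2 difference of 0.71. In all 15 members every LSD1-GR+DEX library exceeded every LSD1-GFP library, as it did in 4477 of all 19487 genes tested. CYP71A12, a cytochrome P450 of the indole pathway, stood at 64.8, 62.4 and 62.6 CPM in LSD1-GR+DEX, against 3.02, 6.72 and 2.44 CPM in LSD1-GFP (log2 difference 3.94, SE 0.22, adjusted p = 1.06e-07), and was 15.4-fold higher. Its close copy CYP71A13 rose by only 0.79, and the pair summed to 113.7, 112.6 and 114.6 CPM in LSD1-GR+DEX, against 27.67, 43.7 and 27.93 CPM in LSD1-GFP. PAD3, which completes camalexin, stood at 105, 172 and 97.2 CPM in LSD1-GR+DEX, against 15.8, 20.9 and 11.7 CPM in LSD1-GFP (log2 difference 2.95, SE 0.30, adjusted p = 4.51e-05). For these genes LSD1-GFP lay near wild type, which had CYP71A12 at 3.70 ± 0.139 CPM and PAD3 at 10.6 ± 4.23 CPM. The lsd1-1 mutant lay near LSD1-GR+DEX for the summed CYP71A12 and CYP71A13, at 153.1, 110.1 and 139.2 CPM. For other sets, such as the clade Ib bHLH genes above, lsd1-1 lay far from LSD1-GR+DEX.

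Further along the branch, CYP81F2, which modifies indole glucosinolates, rose by 1.64 (SE 0.35) and MYB51, a factor that switches on the pathway, by 1.01 (SE 0.21). The shared enzymes CYP79B2 and CYP83B1 rose by 0.71 and 0.66, GGP1, which supplies the sulfur group, by 0.86, and PEN2, a myrosinase that activates indole glucosinolates at infection sites, by 0.57. The aliphatic glucosinolate list had 1 of 15 higher and 5 lower (40% called, against 32.8% over all genes tested), with a median of -0.12. Its number of falls was 3 without LSD1-GR+DEX replicate 1 or 3 or LSD1-GFP replicate 3, and its 1 rise was 0 without LSD1-GR+DEX replicate 3 or LSD1-GFP replicate 1 or 2. Those that fell included the regulators MYB29 (-1.03) and MYB76 (-0.89) and the myrosinase TGG1 (-0.68).

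Salicylic acid genes moved less. Of 33 tested members 10 rose and 2 fell, a called share of 36.4%, against 32.8% over all genes tested. The list summed to 836, 783 and 792.1 CPM in LSD1-GR+DEX, against 659.7, 528.2 and 565.2 CPM in LSD1-GFP. In wild type it summed to 1003, 634.9 and 812.6 CPM, and in lsd1-1 to 2015, 1559 and 1796 CPM. WRKY70, a factor between salicylic acid and jasmonate signalling, was at 32.3, 34.2 and 35.0 CPM in LSD1-GR+DEX, against 13.4, 9.74 and 13.3 CPM in LSD1-GFP (log2 difference 1.48, SE 0.18, adjusted p = 3.71e-05), with no overlap. The glucosyltransferases UGT76B1 and UGT74F2, which act on immune signals and salicylic acid, rose by 1.41 and 1.24, and DMR6, which hydroxylates salicylic acid, by 0.71. The members that fell were PR2, a glucanase, by 2.03 and PBS3, of salicylic acid synthesis, by 0.93. PR1, the usual marker of this branch, was at 110.4, 12.7 and 95.8 CPM in LSD1-GR+DEX, against 31.0, 12.1 and 21.8 CPM in LSD1-GFP. LSD1-GR+DEX replicate 2 was near the lowest LSD1-GFP library, and the difference did not pass (log2 difference 1.76, SE 0.72, adjusted p = 0.096; 0.00733 without that replicate).

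Of the 22 regulators of cell death and partners of LSD1, 7 rose and 3 fell, LSD1 included. This was 45.5% called, against 32.8% over all genes tested. The number that rose was 4 without LSD1-GR+DEX replicate 2 or LSD1-GFP replicate 3. The LSD1-like LOL1, known to promote cell death, was at 7.16, 8.75 and 6.29 CPM in LSD1-GR+DEX, against 19.3, 12.6 and 15.4 CPM in LSD1-GFP (log2 difference -1.09, SE 0.17, adjusted p = 2.27e-04). The metacaspase MC2, known in Arabidopsis to hold back the death that MC1 promotes, was at 5.64, 4.23 and 5.24 CPM in LSD1-GR+DEX, against 2.52, 1.89 and 2.84 CPM in LSD1-GFP (log2 difference 1.06, SE 0.24, adjusted p = 0.00406). The lines did not overlap for either gene. MC1 had 0.18 (SE 0.10) (adjusted p = 0.174). LOL2, another LSD1-like gene, did not pass with all libraries. It passed without LSD1-GR+DEX replicate 2 (log2 difference -0.57, adjusted p = 0.0373 by the same test). BAP1, a membrane-binding inhibitor of cell death, rose by 1.22, BI1, the Bax inhibitor of the endoplasmic reticulum, by 0.64, and RBOHD, the NADPH oxidase of the immune oxidative burst, by 0.62.

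Genes that detoxify foreign or oxidised compounds were mostly higher in LSD1-GR+DEX. Glutathione transferases attach glutathione to such compounds, glucosyltransferases attach sugar, and MATE and ABC transporters export or store the products. Of 30 tested members 23 rose and none fell, with a median log2 difference of 1.46; the number that fell was 1 without LSD1-GR+DEX replicate 2 or LSD1-GFP replicate 1. The medians against the shared wild type were 1.5 for LSD1-GR+DEX and 0.25 for LSD1-GFP.

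The MATE transporter AT2G04050 stood at 85.1, 86.4 and 77.1 CPM in LSD1-GR+DEX, against 6.44, 4.64 and 3.35 CPM in LSD1-GFP, and was 17.2-fold higher (log2 difference 4.104, SE 0.32, adjusted p = 5.48e-06). GSTU3 was at 6.80, 15.8 and 4.29 CPM in LSD1-GR+DEX, against 0.302, 0.378 and 0.406 CPM in LSD1-GFP (log2 difference 4.58, SE 0.69, adjusted p = 4.52e-04), and replicate 2 was its highest library. GSTF7 was at 335, 356 and 325 CPM in LSD1-GR+DEX, against 48.5, 68.5 and 33.4 CPM in LSD1-GFP (log2 difference 2.75, SE 0.25, adjusted p = 1.67e-05). No LSD1-GR+DEX library of these transferases came near the LSD1-GFP range. GSTF7 and GSTF6 are close copies. Together they gave 733.1, 781.7 and 710.9 CPM in LSD1-GR+DEX, against 144.9, 212.7 and 104.9 CPM in LSD1-GFP. The pair gave 387.3, 450.2 and 327.9 CPM in lsd1-1, and 93.44, 127.6 and 75.97 CPM in wild type. The abundant GSTF2 rose by 1.74 (SE 0.10) with the lowest adjusted p of the list, 6.69e-08, and its near copy GSTF3 by 2.04. UGT74E2, a glucosyltransferase of the auxin indole-3-butyric acid, rose by 3.31, the exporter DTX1 by 2.73 and ABCG40, an abscisic acid importer of the ABC family, by 3.66. The element TTGACC, a W-box bound by WRKY factors, was in 33.3% of the promoter windows of this list, against 12.2% of all windows.

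Of 17 tested oxidative stress markers 8 rose and none fell, with a median of 0.61; the number that fell was 1 without LSD1-GR+DEX replicate 2. AOX1D, an alternative oxidase that bypasses the respiratory chain, stood at 40.1, 112 and 37.6 CPM in LSD1-GR+DEX, against 4.93, 5.49 and 3.96 CPM in LSD1-GFP (log2 difference 3.72, SE 0.46, adjusted p = 2.1e-04). Replicate 2 was the highest by far, and the others still lay well above LSD1-GFP. AOX1D was also high in lsd1-1, at 40.0, 38.5 and 36.9 CPM, against 4.92, 3.86 and 2.46 CPM in wild type. BCS1, a mitochondrial ATPase induced by salicylic acid, was at 143, 244 and 124 CPM in LSD1-GR+DEX, against 35.0, 32.7 and 25.8 CPM in LSD1-GFP (log2 difference 2.45, SE 0.26, adjusted p = 4.23e-05). AT2G21640 was at 67.5, 96.0 and 62.9 CPM in LSD1-GR+DEX, against 6.64, 10.6 and 5.69 CPM in LSD1-GFP (log2 difference 3.29, SE 0.25, adjusted p = 2.31e-06). The more abundant AOX1A rose by 1.07 (SE 0.26), OXI1, a kinase switched on by hydrogen peroxide, by 1.88 (SE 0.54), and NDB2, an external NADH dehydrogenase, by 0.58 (SE 0.14). The early redox factors ZAT12 and ZAT10 had 0.36 (SE 0.35) and 0.63 (SE 0.40), and neither passed (adjusted p = 0.462 and 0.256).

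**Figure D4:**
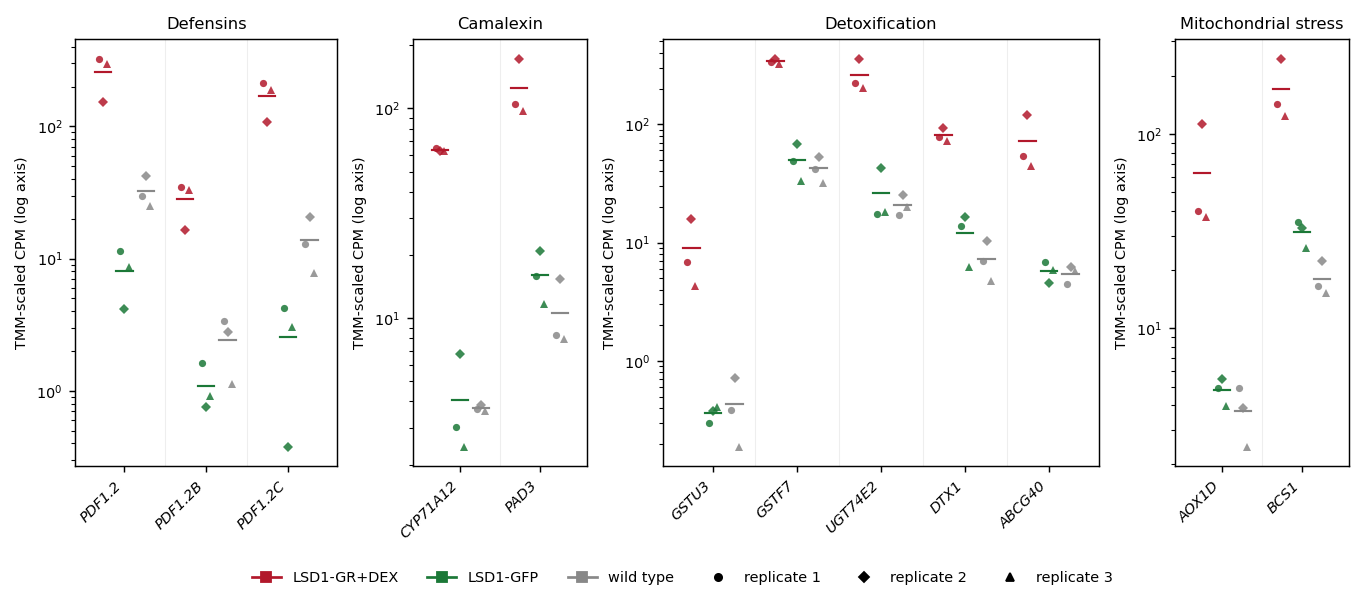
Level in each library of 3 defensins, 2 camalexin genes, 5 detoxification genes and 2 oxidative stress genes of mitochondria in LSD1-GR+DEX, LSD1-GFP and wild type, in TMM-scaled CPM on a log axis, with a point per library and a line at the mean of 3. The LSD1-GR+DEX points lie above all LSD1-GFP points in every panel; for PDF1.2 wild type lies between the lines, at 32.4 CPM.

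Antioxidant enzymes fell more often than they rose. Of 34 tested members 6 rose and 16 fell, with a median of -0.30. FSD1, an iron superoxide dismutase of chloroplasts and cytosol, was at 316, 562 and 325 CPM in LSD1-GR+DEX, against 916, 908 and 964 CPM in LSD1-GFP (log2 difference -1.21, SE 0.19, adjusted p = 3.49e-04). Replicate 2 was highest in LSD1-GR+DEX but remained below LSD1-GFP. Among those that fell were APX4 at -0.95, DHAR3 at -0.88, the peroxiredoxins PRXQ and 2CPB at -0.87 and -0.76, and the stromal and thylakoid peroxidases SAPX and TAPX at -0.38 and -0.44. Monodehydroascorbate reductases MDAR3 and MDAR2 rose by 1.48 and 1.11. The copper-zinc dismutase CSD1 had -0.19 (SE 0.19) (adjusted p = 0.496) and the catalase CAT2 -0.12 (SE 0.10) (adjusted p = 0.377). CSD2 was called lower, by 0.67 on the log2 scale, but its replicates overlapped and its adjusted p was 0.0867 to 0.108 without 3 of the single libraries.

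Nuclear genes for photosynthesis were lower in LSD1-GR+DEX almost throughout. They encode the antenna proteins that hold chlorophyll, subunits of both photosystems and the small subunit of Rubisco. Of 46 tested members 41 fell and 1 rose, with a median log2 difference of -0.69. Together the list gave 80710, 83260 and 85020 CPM in LSD1-GR+DEX, against 129300, 134100 and 146000 CPM in LSD1-GFP and 94730 ± 10400 CPM in wild type. Their medians against the shared wild type were -0.28 for LSD1-GR+DEX and 0.49 for LSD1-GFP, so the lines stood on opposite sides of wild type by this measure. Since CPM are shares of a library, a change in so large a share also moves the levels of the other genes, which TMM scaling is meant to correct.

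LHCB1.4, an antenna protein of photosystem II, stood at 134, 113 and 159.6 CPM in LSD1-GR+DEX, against 1585, 1658 and 2080.5 CPM in LSD1-GFP and 239.7 ± 63.7 CPM in wild type. It was 13.1-fold lower (log2 difference -3.71, SE 0.27, adjusted p = 2.94e-06), with LSD1-GFP far above the other groups. LHCB2.3, another such protein, was at 457, 379.9 and 502 CPM in LSD1-GR+DEX, against 2687, 3005 and 2968 CPM in LSD1-GFP and 496 ± 58.3 CPM in wild type (log2 difference -2.69, SE 0.12, adjusted p = 8.65e-09). Wild type overlapped LSD1-GR+DEX for LHCB2.3, and LSD1-GFP was again the line that stood apart. The members of each LHCB group are near copies. The 5 LHCB1 genes together gave 8553, 8142 and 8986 CPM in LSD1-GR+DEX, against 19710, 21070 and 23120 CPM in LSD1-GFP. Their mean was 2.49-fold higher in LSD1-GFP. They gave 9572, 10630 and 13060 CPM in wild type, and 10630, 10720 and 13150 CPM in lsd1-1.

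Photosystem subunits and Rubisco moved less. PSAN and PSAO of photosystem I fell by 1.33 and 1.27 on the log2 scale. RBCS1A, the main small subunit of Rubisco, was at 11367, 13119.8 and 12489 CPM in LSD1-GR+DEX, against 20009.6, 21228 and 23852 CPM in LSD1-GFP (log2 difference -0.82, SE 0.11, adjusted p = 1e-04), with no overlap. The 1 member that rose was its copy RBCS2B, by 0.28, and that call was absent without LSD1-GR+DEX replicate 1 or 3 or LSD1-GFP replicate 1 or 2. The Rubisco small subunit genes together gave 21140, 22880 and 22810 CPM in LSD1-GR+DEX, against 30180, 31660 and 35930 CPM in LSD1-GFP.

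Chlorophyll synthesis fell with them. Of 16 tested members 11 fell and 1 rose, with a median of -0.58. HEMA1, which catalyses the entry step of tetrapyrrole synthesis, stood at 134, 205 and 137 CPM in LSD1-GR+DEX, against 681, 643 and 738 CPM in LSD1-GFP and 355 ± 49.7 CPM in wild type. It was 4.34-fold lower (log2 difference -2.12, SE 0.15, adjusted p = 5.49e-07), and wild type lay between the lines. PORB, a light-driven protochlorophyllide reductase, fell by 1.97, CAO, which makes chlorophyll b, by 0.82, and CHLM, of the magnesium branch, by 0.79. GLK1, a factor that switches on such genes, rose by 0.46 (SE 0.06) (adjusted p = 1.02e-04).

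**Figure D5:**
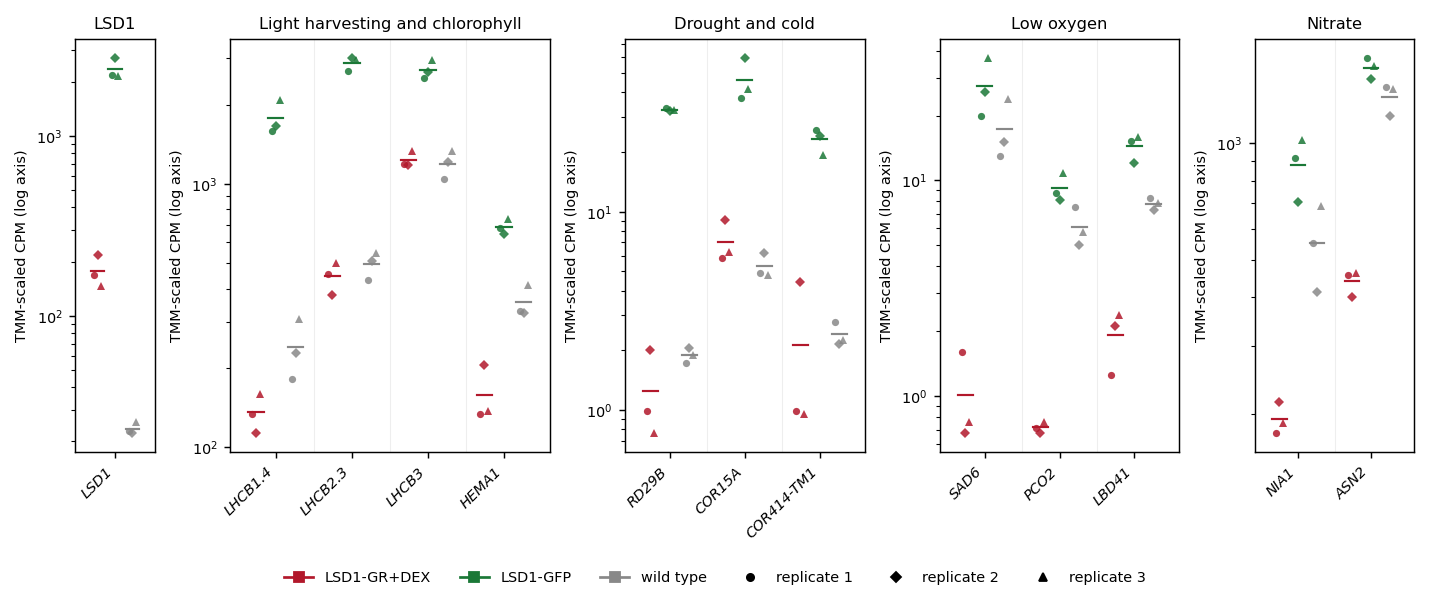
Level in each library of LSD1, 3 antenna genes, HEMA1, 3 drought or cold genes, 3 low oxygen genes and 2 nitrogen genes in LSD1-GR+DEX, LSD1-GFP and wild type, in TMM-scaled CPM on a log axis, with a point per library and a line at the mean of 3. LSD1-GR+DEX lies below LSD1-GFP in every panel; for LHCB2.3 it lies near wild type, whereas for SAD6 and PCO2 wild type lies near LSD1-GFP.

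Drought and cold genes were lower in LSD1-GR+DEX. Many carry abscisic acid response elements or the CCGAC element, bound by the CBF and DREB factors, in their promoters. Of 20 tested members of the abscisic acid and drought list 11 fell and none rose, with a median of -0.53. Of 13 tested cold genes 8 fell and 2 rose, with a median of -0.57. The number of drought genes that rose was 1 without LSD1-GR+DEX replicate 1. The number of drought genes that fell was 7 without LSD1-GR+DEX replicate 1 or 3 or LSD1-GFP replicate 1, and that of cold genes was 5 without LSD1-GR+DEX replicate 3 or LSD1-GFP replicate 1. The promoter windows of 3 genes that fell strongly are printed, read and marked as above.
RD29B (chr5:21236771-21237020, plus strand): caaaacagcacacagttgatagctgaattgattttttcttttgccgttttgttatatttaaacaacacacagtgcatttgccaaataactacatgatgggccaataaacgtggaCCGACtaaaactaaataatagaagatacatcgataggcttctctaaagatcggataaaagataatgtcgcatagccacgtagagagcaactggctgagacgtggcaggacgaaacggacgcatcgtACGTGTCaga
COR15A (chr2:17712331-17712580, minus strand): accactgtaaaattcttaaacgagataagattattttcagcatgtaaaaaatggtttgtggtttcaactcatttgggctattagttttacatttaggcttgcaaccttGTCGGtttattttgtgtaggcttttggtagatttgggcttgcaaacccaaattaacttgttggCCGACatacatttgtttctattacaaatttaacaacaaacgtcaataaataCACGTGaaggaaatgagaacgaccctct
COR414-TM1 (chr1:10289667-10289916, minus strand): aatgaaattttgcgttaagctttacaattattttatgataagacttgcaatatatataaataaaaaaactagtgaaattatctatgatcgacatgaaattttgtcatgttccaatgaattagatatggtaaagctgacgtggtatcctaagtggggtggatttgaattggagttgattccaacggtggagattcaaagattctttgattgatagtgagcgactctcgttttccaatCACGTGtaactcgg

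The RD29B window held an ACGTGTC starting 10 bases before the gene and a CCGAC at 136. The COR15A window held a G-box at 28, a CCGAC at 79 and its reverse complement at 142, and the COR414-TM1 window a G-box at 14. ACGTGTC was in 40.9% of the windows of the drought list, against 3.74% of all windows, and CCGAC in 33.3% of those of the cold list, against 11.9% of all. These lists consist of genes known for such elements.

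RD29B, a classic marker of abscisic acid response, stood at 0.984, 2.02 and 0.763 CPM in LSD1-GR+DEX, against 33.4, 32.2 and 32.6 CPM in LSD1-GFP and 1.90 ± 0.164 CPM in wild type. It was 26.0-fold lower (log2 difference -4.70, SE 0.27, adjusted p = 4.78e-08), and the 3 LSD1-GFP libraries lay close together and far above both other groups. P5CS1, which makes proline, was at 169, 263 and 168 CPM in LSD1-GR+DEX, against 901, 846 and 882 CPM in LSD1-GFP (log2 difference -2.13, SE 0.21, adjusted p = 1.77e-05). HAI1 and HAB1, phosphatases that damp abscisic acid signalling, fell by 1.69 and 0.91. COR15A, a cold-induced protein of the plastid stroma, was at 5.82, 9.04 and 6.29 CPM in LSD1-GR+DEX, against 37.2, 59.4 and 41.5 CPM in LSD1-GFP and 5.31 ± 0.766 CPM in wild type (log2 difference -2.71, SE 0.27, adjusted p = 1.77e-05). COR414-TM1, a cold-induced plastid membrane protein, was at 0.984, 4.42 and 0.954 CPM in LSD1-GR+DEX, against 26.0, 24.0 and 19.4 CPM in LSD1-GFP (log2 difference -3.45, SE 0.37, adjusted p = 2.5e-05). For both genes wild type lay near LSD1-GR+DEX and LSD1-GFP was high. COR15B fell by 3.34. The members that rose were the galactinol synthases GOLS2 and GOLS1, which feed raffinose synthesis, by 2.86 and 1.62.

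Low oxygen genes were lower in LSD1-GR+DEX, and here wild type lay nearer to LSD1-GFP. Plants that lack oxygen raise a core set of genes for fermentation, sucrose breakdown and control of the response. Of 13 tested members 9 fell and 2 rose, with a median of -1.81, and the same numbers were found without each of the 6 libraries. The medians against the shared wild type were -1.31 for LSD1-GR+DEX and 0.45 for LSD1-GFP.

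SAD6, a stearoyl desaturase of the core set, stood at 1.61, 0.673 and 0.763 CPM in LSD1-GR+DEX, against 19.8, 25.8 and 36.9 CPM in LSD1-GFP and 17.3 ± 5.77 CPM in wild type. It was 26.5-fold lower (log2 difference -4.73, SE 0.43, adjusted p = 1.17e-05). PCO2, a plant cysteine oxidase that senses oxygen, was at 0.716, 0.673 and 0.763 CPM in LSD1-GR+DEX, against 8.75, 8.14 and 10.9 CPM in LSD1-GFP (log2 difference -3.67, SE 0.27, adjusted p = 5.4e-07). For both genes every LSD1-GR+DEX library lay far below every LSD1-GFP library. The factor LBD41 fell by 2.91, the cysteine oxidase PCO1 by 2.27 and the sucrose synthase SUS4 by 2.26. ADH1, the alcohol dehydrogenase of fermentation, was at 4.83, 4.13 and 2.96 CPM in LSD1-GR+DEX, against 22.0, 21.2 and 29.1 CPM in LSD1-GFP and 25.4 ± 2.99 CPM in wild type (log2 difference -2.59, SE 0.24, adjusted p = 4.58e-06). The members that rose were the ethylene response factor HRE2, by 2.29, and the haemoglobin HB1, which scavenges nitric oxide, by 1.395. The pyruvate decarboxylase PDC1 had -0.42 (SE 0.23) and did not pass (adjusted p = 0.179).

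Several genes of nitrate assimilation fell and most of sulfate assimilation rose. Of 26 tested nitrate genes 12 fell and 1 rose, with a median of -0.23; of 19 tested sulfur genes 15 rose and none fell, with a median of 0.89. NIA1, a nitrate reductase, stood at 178, 215 and 189.6 CPM in LSD1-GR+DEX, against 918, 705 and 1019 CPM in LSD1-GFP (log2 difference -2.18, SE 0.19, adjusted p = 3.92e-06). ASN2, which makes asparagine, was at 457, 401 and 464 CPM in LSD1-GR+DEX, against 1658, 1462 and 1579 CPM in LSD1-GFP (log2 difference -1.83, SE 0.09, adjusted p = 1.69e-08). The lines were well apart for both. NIA2, the main nitrate reductase, fell by 0.99, the nitrite reductase NIR1 by 1.25 and the scaffold proteins BT1 and BT2 by 1.85 and 1.73. The transporter NRT1.1 was the 1 that rose, by 0.76, and this number was 2 without LSD1-GR+DEX replicate 1 and 3 without LSD1-GFP replicate 2.

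APR1, which reduces activated sulfate, stood at 362, 396 and 357 CPM in LSD1-GR+DEX, against 139, 90.2 and 137 CPM in LSD1-GFP (log2 difference 1.61, SE 0.17, adjusted p = 2.01e-05), with no overlap. APR3 rose by 1.18, the root sulfate transporter SULTR1;2 by 1.24, and LSU1, a small protein induced by low sulfur, by 1.56. Phosphate starvation genes changed less, with 6 of 19 higher and none lower (31.6% called, against 32.8% over all genes tested). Among them the phosphatase PAP17 rose by 1.86 and SQD2, of sulfolipid synthesis, by 1.16, whereas IPS1, the usual marker of low phosphate, had 0.27 (SE 0.35) (adjusted p = 0.595). Copper response genes split 3 higher and 4 lower of 15. The number higher was 1 without LSD1-GR+DEX replicate 1 or LSD1-GFP replicate 1 and 5 without LSD1-GFP replicate 2, and the number lower was 2 without LSD1-GFP replicate 3.

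The count of heat shock genes changed with the libraries used. The list summed to 10150, 18400 and 10240 CPM in LSD1-GR+DEX, against 6410, 8398 and 6759 CPM in LSD1-GFP. In wild type it summed to 2258, 3430 and 2675 CPM, and in lsd1-1 to 4936, 8527 and 5214 CPM, so replicate 2 was the highest in all 4 groups. HSP17.6II, a small heat shock protein, stood at 36.4, 231 and 36.9 CPM in LSD1-GR+DEX, against 8.15, 17.78 and 5.89 CPM in LSD1-GFP (log2 difference 3.25, SE 0.97, adjusted p = 0.0312). HSP17.4, another one, was at 19.3, 129 and 17.64 CPM in LSD1-GR+DEX, against 4.43, 9.65 and 4.87 CPM in LSD1-GFP (log2 difference 3.12, SE 0.92, adjusted p = 0.0299). Replicate 2 was several times above the other LSD1-GR+DEX libraries, and these still lay above LSD1-GFP. In 15 of 23 tested members every LSD1-GR+DEX library exceeded every LSD1-GFP library, as in 4477 of all 19487 genes tested. In none did every LSD1-GR+DEX library lie below. With a block for the replicate number, 17 were called higher. In the main fit 6 rose and none fell, with a median of 1.4. The number that rose was 1 without LSD1-GR+DEX replicate 2 or LSD1-GFP replicate 1 or 3 and 3 without LSD1-GFP replicate 2, and the number that fell was 2 without LSD1-GR+DEX replicate 2 and 1 without LSD1-GFP replicate 3. HSP70 averaged 2273 ± 994 CPM in LSD1-GR+DEX, 801 ± 214 CPM in LSD1-GFP and 100.6 ± 69.3 CPM in wild type, and the difference between the lines did not pass (log2 difference 1.51, adjusted p = 0.0768). Against the shared wild type the median of the list was 3.89 in LSD1-GR+DEX and 2.46 in LSD1-GFP.

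Chaperones of the endoplasmic reticulum and genes of ribosome assembly rose moderately. Of 11 tested folding genes 7 rose and 2 fell, with BIP1 at 0.84 and PDIL1-2 at 0.72; the number that fell was 0 without LSD1-GR+DEX replicate 1 and 1 without LSD1-GR+DEX replicate 2 or LSD1-GFP replicate 1. Of 17 ribosome genes 9 rose and none fell. They included all 7 assembly factors, led by the fibrillarin FIB2 (1.21), APUM24 (1.07) and NOP56 (0.99), but only RPS5B (0.24) and RPL5B (0.28) of 10 ribosomal proteins. Of the cell division genes 2 of 20 were higher and none lower (10% called, against 32.8% over all genes tested). The 2 were MCM3 (0.50) and the ribonucleotide reductase TSO2 (1.00). The number higher was 1 without LSD1-GR+DEX replicate 3 or LSD1-GFP replicate 1.

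Several clock genes of the evening were lower in LSD1-GR+DEX, though GI was not. Of 13 tested day and evening genes 6 fell and 1 rose, with a median of -0.24. Of 13 tested morning genes 6 fell and none rose. The promoter windows of the evening genes PRR5 and TOC1 are printed with the evening element AAAATATCT, the site of the morning factors CCA1 and LHY, and other elements in capitals.
PRR5 (chr5:8358547-8358796, minus strand): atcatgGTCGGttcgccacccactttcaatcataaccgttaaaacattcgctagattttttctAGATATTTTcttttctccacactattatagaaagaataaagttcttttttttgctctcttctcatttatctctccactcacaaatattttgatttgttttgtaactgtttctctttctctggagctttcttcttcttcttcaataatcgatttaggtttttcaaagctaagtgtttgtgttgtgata
TOC1 (chr5:24674713-24674962, plus strand): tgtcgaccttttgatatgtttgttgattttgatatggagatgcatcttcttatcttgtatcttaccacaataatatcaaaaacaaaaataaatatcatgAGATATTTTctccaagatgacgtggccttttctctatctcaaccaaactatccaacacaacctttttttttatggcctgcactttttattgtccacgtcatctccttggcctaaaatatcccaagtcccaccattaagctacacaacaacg

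The evening element lay on the opposite strand in both, 187 bases before PRR5 and 151 before TOC1, and the PRR5 window also held a CCGAC on that strand at 244. The element was in 7 of 14 windows of the list, against 2.4% of all windows. PRR5 stood at 4.21, 5.67 and 4.29 CPM in LSD1-GR+DEX, against 15.3, 15.1 and 11.8 CPM in LSD1-GFP (log2 difference -1.58, SE 0.20, adjusted p = 4.65e-05). TOC1 was at 26.6, 34.6 and 27.8 CPM in LSD1-GR+DEX, against 57.6, 76.2 and 50.9 CPM in LSD1-GFP (log2 difference -1.05, SE 0.15, adjusted p = 1.87e-04). The lines did not overlap for either repressor. ELF3 of the evening complex fell by 0.89, and GRP8, an RNA-binding protein under clock control, rose by 0.88. GI was at 45.5, 68.6 and 46.4 CPM in LSD1-GR+DEX, against 42.6, 55.4 and 45.2 CPM in LSD1-GFP, and the difference did not pass (log2 difference 0.16, adjusted p = 0.658); both lines lay far above the 5.63 ± 1.49 CPM of wild type. CCA1 and LHY had -0.03 (SE 0.10) and 0.21 (SE 0.09) (adjusted p = 0.852 and 0.0812), while the related RVE2, RVE1 and RVE4 fell by 1.35, 0.72 and 0.45. Such genes swing over the day, and the hour of harvest is not given.

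Several genes of flower identity were higher in LSD1-GR+DEX than in LSD1-GFP, at low levels. Of 15 tested members 7 rose and 3 fell, the number that rose being 4 without LSD1-GR+DEX replicate 1 or 3 or LSD1-GFP replicate 1 or 2. FUL, a MADS-box gene of flowering, was at 7.25, 6.92 and 6.77 CPM in LSD1-GR+DEX, against 2.21, 2.18 and 3.25 CPM in LSD1-GFP and 13.9 ± 1.36 CPM in wild type (log2 difference 1.45, SE 0.17, adjusted p = 2.84e-05). SEP3 and SEP4 rose by 1.83 and 1.72, and SVP, a repressor of flowering, fell by 0.81. Both lines lay below wild type for FUL. The medians of the list against the shared wild type were -0.43 for LSD1-GR+DEX and -1.18 for LSD1-GFP.

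Cytokinin response genes were likewise below wild type in both lines. ARR7, a response regulator induced by cytokinin, stood at 40.7, 48.5 and 45.4 CPM in LSD1-GR+DEX, against 27.0, 24.7 and 26.6 CPM in LSD1-GFP and 140.5 ± 28.0 CPM in wild type (log2 difference 0.78, SE 0.16, adjusted p = 0.00199). The median of the list was -1.34 in LSD1-GR+DEX and -1.4 in LSD1-GFP relative to the shared wild type. Between the lines 4 of 11 tested members rose and none fell (36.4% called, against 32.8% over all genes tested). The number that rose was 2 without LSD1-GR+DEX replicate 1 or 3 or LSD1-GFP replicate 1 and 7 without LSD1-GR+DEX replicate 2. CKX4, a cytokinin oxidase, rose by 1.26.

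Other growth genes moved in both directions. GASA6, a small protein induced by gibberellin, was at 99.7, 84.1 and 94.98 CPM in LSD1-GR+DEX, against 413, 433 and 338 CPM in LSD1-GFP (log2 difference -2.09, SE 0.14, adjusted p = 4.05e-07), with no overlap, and GASA4 fell by 1.35. BR6OX2, of brassinosteroid synthesis, rose by 1.22. The brassinosteroid and gibberellin list stood at 3 of 15 higher and 2 lower (33.3% called, against 32.8% over all genes tested). Of the cell wall genes of growing leaves 2 of 13 rose and 4 fell, the expansin EXPA1 by 1.09 and the wall-loosening XTH4 by 0.81 among them; the number that rose was 1 without LSD1-GR+DEX replicate 1 or 3 or LSD1-GFP replicate 1. Of the auxin response genes 3 of 19 were higher and 1 lower (21.1% called, against 32.8% over all genes tested). The number higher was 5 without LSD1-GR+DEX replicate 2, and the number lower was 0 without LSD1-GR+DEX replicate 1 or 3 or LSD1-GFP replicate 1 or 3 and 2 without LSD1-GFP replicate 2. Of the phytochrome and shade genes 6 of 12 fell and 1 rose, the falls being 2 without LSD1-GR+DEX replicate 1 or 3 or LSD1-GFP replicate 1 and 3 without LSD1-GFP replicate 2. PIL1, induced by shade, fell by 1.73, and ELIP1, a light-stress protein of thylakoids, rose by 1.39. Touch genes stood at 1 of 9 higher, the calmodulin-like TCH3 (1.05), and none lower; the number higher was 0 without LSD1-GR+DEX replicate 2 or LSD1-GFP replicate 1 or 3 and 2 without LSD1-GFP replicate 2, and the number lower was 1 without LSD1-GFP replicate 2.

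Phenylpropanoid and flavonoid genes rose in part, with 8 of 20 higher and 1 lower (45% called, against 32.8% over all genes tested). The number lower was 2 without LSD1-GR+DEX replicate 2. PAP1, the MYB switch of anthocyanin synthesis, rose by 2.07 and the flavonol rhamnosyltransferase UGT78D1 by 0.85, while UGT78D2, a flavonoid glucosyltransferase, fell by 0.69. Senescence and starvation genes were mixed, with 4 of 20 higher and 5 lower (45% called, against 32.8% over all genes tested). The falls were 3 without LSD1-GR+DEX replicate 3 or LSD1-GFP replicate 2, and 2 without LSD1-GFP replicate 1. DIN11, a dark-induced oxygenase, stood at 74.2, 73.7 and 69.7 CPM in LSD1-GR+DEX, against 2.62, 1.42 and 2.03 CPM in LSD1-GFP and 16.6 ± 9.17 CPM in wild type (log2 difference 5.16, SE 0.44, adjusted p = 1.38e-05). The lines were far apart, with wild type between them. The leaf senescence factor NAP fell by 1.07. Of 5 genes of sugar surplus 2 rose (40% called, against 32.8% over all genes tested). They were the β-amylase BAM5 (3.38) and the plastid glucose-phosphate carrier GPT2 (1.70). Of 8 photoperiod genes 4 fell and none rose: CDF1 and CDF3, which repress flowering, by 0.61 each, BBX19 by 0.56 and COL1 by 0.22. The call of COL1 was lost without any of 5 single libraries.

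Where the higher line had a mean of 5 CPM or more, several of the largest rises were defence or metabolic genes outside the lists. AT5G61160, annotated as an anthocyanin 5-aromatic acyltransferase, rose by 5.74 (SE 0.49), AT2G38240 by 5.09 (SE 0.24) and the terpene synthase TPS04, of volatile homoterpenes, by 5.05 (SE 0.63). AZI1, a lipid-transfer-like protein of systemic immunity, was at 185, 159.8 and 177 CPM in LSD1-GR+DEX, against 9.76, 7.66 and 11.8 CPM in LSD1-GFP (log2 difference 4.16, SE 0.26, adjusted p = 8.86e-07). None of its LSD1-GR+DEX libraries came near LSD1-GFP.

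The largest falls included genes with no counts outside LSD1-GFP. AT5G20430, annotated as a Mob1/phocein family protein (chromosome 5, 6904672 to 6905506), had 0 counts in LSD1-GR+DEX, against 1089 counts in LSD1-GFP, with 0 in wild type and in lsd1-1. It stood at 30.5, 45.3 and 31.2 CPM in LSD1-GFP, and was at least 384-fold lower in LSD1-GR+DEX, taking a floor of 3 counts over the group. Its neighbour AT5G20440 (6908606 to 6909996), of the same annotation, had 0 counts in LSD1-GR+DEX, against 257 counts in LSD1-GFP, and again 0 in the other groups. A neighbour of these genes on that chromosome, CHR42, was at 0.984, 0.769 and 0.858 CPM in LSD1-GR+DEX, against 15.697, 14.9 and 14.7 CPM in LSD1-GFP and 1.25 ± 0.393 CPM in wild type (log2 difference -4.09, SE 0.21, adjusted p = 1.69e-08). AT5G20430 and AT5G20440 may share reads, as they carry the same annotation. AT3G59480 was at 5.996, 7.50 and 7.63 CPM in LSD1-GR+DEX, against 103, 113 and 103 CPM in LSD1-GFP and 0.711 ± 0.239 CPM in wild type, so that here both lines exceeded wild type and LSD1-GFP by far the more. AT4G25580, annotated as a CAP160 protein, had 2 counts in LSD1-GR+DEX, against 377 counts in LSD1-GFP, a 199-fold ratio (95% counting interval 54.8 to 1650). The sucrose carrier SUC5 fell by 4.76.

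In all, 9 genes were present in every LSD1-GR+DEX library and near absent from LSD1-GFP, and 8 the other way round. Presence was taken as at least 0.5 CPM in each library with a mean of at least 1 CPM, and near absence as at most 3 counts over the other line. The 9 were the defensins PDF1.1 and PDF1.3, the thioredoxin TH7, the cupins AT3G04300 and AT4G36700, AT3G44830, AT1G51920, AT1G78030 and AT5G54450. The 8 were AT5G20430, AT5G20440, AT4G25580, AT3G29970, AT4G10265, AT2G17850, AT1G12805 and AT5G40790. AT4G36700 had 162 counts in LSD1-GR+DEX, against 3 counts in LSD1-GFP, a 51.1-fold ratio (interval 17.2 to 250), and AT4G10265 had 2 counts in LSD1-GR+DEX, against 83 counts in LSD1-GFP, a 43.8-fold ratio (interval 11.8 to 368).

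None of 11 vascular markers was called, and they summed to 305.7, 257.5 and 330.8 CPM in LSD1-GR+DEX, against 250.8, 263.9 and 380 CPM in LSD1-GFP. Of 9 guard cell and stomatal genes only KAT2, a potassium channel, was called higher (0.50), and that call was lost without any of 5 single libraries; the number lower was 1 without LSD1-GFP replicate 1. Of 9 epidermal markers 4 fell and none rose, against 16.2% lower over all genes, the number being 2 without LSD1-GFP replicate 2. The epidermal markers summed to 1676, 1786 and 1543 CPM in LSD1-GR+DEX, against 2289, 2486 and 1871 CPM in LSD1-GFP, and the lines did not overlap. The 2 tested markers of meristem and flower organs were not called, whereas the number higher was 1 without LSD1-GR+DEX replicate 2 or LSD1-GFP replicate 1.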

How the data were processed

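Messenger RNA of 2-week-old rosettes was sequenced from 12 libraries, 3 in each of 4 groups, after a stranded TruSeq preparation per the labels. The submitters' processing notes name Trimmomatic 0.30, GSNAP 2013-02-05, HTSeq 0.6.1 and the build TAIR10; the sources used here give no settings, no strand option and no treatment of reads matching several genes. The deposited values are raw counts for 27416 gene models, of which 26719 loci were matched to the RefSeq annotation of TAIR10.1.

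In R 4.3.3, edgeR 4.0.16 removed low genes (filterByExpr, 19487 left), scaled libraries by TMM and fitted all 12 libraries with a mean per group (robust quasi-likelihood). Two-sided p-values were adjusted over these genes by Benjamini-Hochberg, and a gene was called below 0.05. The standard error is the log2 difference divided by the square root of F. Intervals are exact and cover counting error only. The fit was also run on simulated counts with few changed genes and no replicate effect. That run does not show how the fit performs on data such as these. The members and lists were chosen with earlier results of these data known.

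By rule, named genes were LSD1, the genes present in 1 line and up to 4 called members of lowest adjusted p per list. The 12 strongest rises and 12 strongest falls among called genes were also named. Those had at least 5 CPM in the higher line and replicates that did not overlap. PR1, PDF1.2, CSD1, CSD2, CAT2, RBCS1A, GI, LOL1, LOL2, MC1 and MC2 were fixed whatever their result. Others named, such as PR2, PBS3 or the members that fell in a list, were picked after their values were seen. Alternatives were RLE factors, DESeq2 1.42.0, other filters, the 6 libraries alone, a replicate block, a test beyond 1.5-fold and leaving out each library.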

Additional observations from a re-analysis of the deposited data

How the results depend on the processing

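With all 12 libraries, 6386 genes were called. The number was 6404 with RLE factors, 6001 with DESeq2, 6189 without a filter on low counts, 5762 with at least 5 CPM in 3 libraries, and 5691 in a fit of the 6 libraries alone. Without each library in turn it was 4996 to 6165, and the genes of at least 2-fold change were 1362 to 1677. The test beyond 1.5-fold gave 1140 genes (711 higher and 429 lower), 968 of at least 2-fold change and 146 called list members, against 380. With at least 5 CPM in 3 libraries, 15884 genes were tested and 991 genes of at least 2-fold change were called, against 1491. Calls of any size fell less, from 6386 to 5762, so many of the 2-fold changes lay in genes of low level. Of 186 genes followed under all alternatives, in 2570 gene and setting pairs, 2406 kept direction and side of the threshold, 161 lost the call, 3 gained it and 0 turned round. Of 181 called genes, 20 lost the call without at least 1 library. Most of the genes followed were named for a low adjusted p or a large change in the main fit. Their calls were therefore likely to hold, and these numbers do not measure how stable calls were over all genes.

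Replicate numbers were shared by the labels, but same-numbered deviations of LSD1-GR+DEX and LSD1-GFP correlated at -0.034, 0.123 and 0.328. The numbers were not taken as pairs, and not every library correlated best with its own number. That check left out wild type and lsd1-1. Replicate 2 had the highest value of every group on the first principal component of log2 CPM. The values were 53.1 against 46.9 and 46.2 in LSD1-GR+DEX, and -18.7 against -28.2 and -30.4 in LSD1-GFP. In wild type they were -24.7 against -31.6 and -36.5, and in lsd1-1 14.0 against 6.03 and 3.82. The main fit has no term for such a shift. With the replicate block, 8027 genes were called in all 12 libraries and 7145 in the 6 alone, and the heat shock genes called higher were 17, against 6 without the block. LSD1 stayed between -3.60 and -3.91 on the log2 scale without each library. Depth limits genes of a few counts, whose folds are given with counting intervals.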
